A study of Mus musculus with 12 samples.

Results

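The genes described here are 10 products of fibroblasts and of the non-collagen matrix in mouse mammary tumours. They were taken by name from the deposited count table, which held all 10 among its 56860 genes. All 10 also passed the filter on low counts, which kept 30660 genes. The list holds the receptor gene Pdgfra, the membrane protease gene Fap, the small leucine-rich proteoglycan genes Dcn, Lum and Bgn, the microfibril gene Fbn1, the adhesive glycoprotein gene Fn1, and the matricellular genes Postn, Tnc and Thbs2.

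The tumours were primary tumours of mice carrying MMTV-PyMT, a transgene in which the mouse mammary tumour virus promoter drives the polyoma middle T oncogene mainly in mammary epithelium. They were collected at 4.5 months, and total RNA from 4 tumours of each of 3 strains was sequenced. WT animals carried MMTV-Cre with MMTV-PyMT by the design text, whereas the strain label of these samples gives MMTV-PyMT alone. C3_KO animals carried MMTV-Cre, MMTV-PyMT and the C3Tdt allele of complement component C3. S1pr1_KO animals carried MMTV-Cre, MMTV-PyMT and S1pr1fl/fl, the floxed gene of a sphingosine-1-phosphate receptor. The comparison asks what conditional loss of either gene does to the tumour. Because MMTV drives Cre mainly in epithelium, fibroblasts of all 3 strains may keep both genes. Whether the tumours of 1 strain came from separate mice is not stated, so p-values measure the spread between these samples, which may be partly technical.

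Fibroblasts of a tumour secrete most of its interstitial matrix. Pdgfra and Fap are used as markers of these cells, and the protease encoded by Fap is known from activated fibroblasts. Decorin, lumican and biglycan, the products of Dcn, Lum and Bgn, bind collagen fibrils and set their thickness and spacing. Fibrillin 1, from Fbn1, forms microfibrils that carry elastin and latent TGF-beta complexes, and fibronectin is an adhesive protein on which other matrix proteins assemble. Periostin, tenascin C and thrombospondin 2 are matricellular proteins, scarce in resting tissue and abundant in wounds and tumour stroma. Fibronectin and tenascin C can also be made by epithelial and endothelial cells. In bulk tumour RNA, fewer cells of a type and less RNA per cell cannot be told apart.

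Total counts per library ran from 230.4 to 484.0, in units of 1e+06 counts. The 4 libraries with the lowest totals were S1pr1_KO replicates 4, 1 and 2, with 230.4, 248.7 and 284.1 of these units, and C3_KO replicate 4, with 237.1. Genes with a count above 0 ran from 33159 in WT replicate 1 to 37603 in S1pr1_KO replicate 2. S1pr1_KO replicate 3 was next lowest at 33664, and the part of this in gene levels was not tested. C3 levels spanned 43.3 to 182 CPM among WT tumours and 41.6 to 75.1 CPM among those labelled C3_KO. For S1pr1 the WT span was 2.88 to 8.02 CPM and that of S1pr1_KO 2.59 to 7.43 CPM. The targeted genes therefore overlapped between strains, and these libraries are called by their labels. CPM, or counts per 1e+06, is a gene's count relative to the library total after TMM scaling (trimmed mean of M values). Some libraries stood apart in other tissues' markers. Summed milk markers were 87300 CPM in C3_KO replicate 3 and at most 5940 CPM elsewhere, and summed salivary markers 152000 CPM in S1pr1_KO replicate 1 and 9490 CPM in S1pr1_KO replicate 4 against at most 262 CPM in the other libraries. S1pr1_KO replicate 3 was the lowest of the 12 libraries for Pdgfra, Fap and Postn, and S1pr1_KO values of these genes are given with and without it. Because it was picked by its low levels of these genes, leaving it out raises their values by construction. A pass without it is therefore not separate support for a difference. The fibroblast genes Col1a1, Col1a2, Col3a1 and Dpt were detected in each library, with lowest levels of 368, 433, 361 and 6.65 CPM. Their detection in bulk tumour RNA at this depth could hardly fail. It therefore does not show which cells expressed the genes described here.

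RefSeq start-site windows on build GRCm38.p6 were at hand for 6 of the 10 genes, from 250 bases before to 50 bases after an annotated start. The files themselves use build GRCm39, and only gene names link the builds. The 5 windows below are shown because Pdgfra with Postn, and Tnc with Thbs2, had levels that correlated across tumours, and because Fbn1 had the lowest p of the 10 genes in both comparisons with WT. For Postn and Tnc, which have 2 annotated starts each, the more downstream window is shown. Capitals mark any match, on either strand, to a TATA box spelt TATAAA, the CCAAT box with those letters, a GC box spelt GGGCGG, an AP-1 motif spelt TGANTCA, a TEAD motif spelt GGAATG or a SMAD motif spelt CAGACA.
Pdgfra, chr5:75152001-75152300, plus strand: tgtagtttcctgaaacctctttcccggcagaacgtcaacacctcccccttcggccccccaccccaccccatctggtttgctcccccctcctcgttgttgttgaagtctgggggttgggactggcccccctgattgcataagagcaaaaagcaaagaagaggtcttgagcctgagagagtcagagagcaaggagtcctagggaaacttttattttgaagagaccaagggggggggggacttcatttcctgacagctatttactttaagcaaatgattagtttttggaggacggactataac
Postn, chr3:54360857-54361156, plus strand: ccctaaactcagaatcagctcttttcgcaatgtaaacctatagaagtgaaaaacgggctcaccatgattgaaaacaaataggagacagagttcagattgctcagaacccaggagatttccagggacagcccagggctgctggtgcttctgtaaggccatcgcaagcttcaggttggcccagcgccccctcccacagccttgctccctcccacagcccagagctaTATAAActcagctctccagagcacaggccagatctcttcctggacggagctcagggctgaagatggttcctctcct
Fbn1, chr2:125506389-125506688, minus strand: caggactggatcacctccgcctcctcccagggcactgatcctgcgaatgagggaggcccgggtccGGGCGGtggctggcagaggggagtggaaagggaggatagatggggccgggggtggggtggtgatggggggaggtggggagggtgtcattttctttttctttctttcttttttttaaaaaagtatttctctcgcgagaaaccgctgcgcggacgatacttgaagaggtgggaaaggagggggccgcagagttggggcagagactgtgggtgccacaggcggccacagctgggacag
Tnc, chr4:64046887-64047186, minus strand: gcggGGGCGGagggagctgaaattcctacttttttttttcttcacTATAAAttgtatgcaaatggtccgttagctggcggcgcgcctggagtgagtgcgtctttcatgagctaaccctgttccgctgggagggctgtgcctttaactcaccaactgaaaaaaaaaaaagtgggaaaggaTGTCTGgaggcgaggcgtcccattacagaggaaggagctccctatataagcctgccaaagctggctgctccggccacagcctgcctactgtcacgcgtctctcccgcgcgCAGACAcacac
Thbs2, chr17:14694213-14694512, minus strand: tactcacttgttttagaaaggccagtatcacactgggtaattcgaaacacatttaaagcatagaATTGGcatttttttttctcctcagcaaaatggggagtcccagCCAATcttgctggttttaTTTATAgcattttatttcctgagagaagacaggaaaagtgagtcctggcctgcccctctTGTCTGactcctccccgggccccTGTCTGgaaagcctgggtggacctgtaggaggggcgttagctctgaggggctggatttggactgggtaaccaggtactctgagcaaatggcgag

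The windows shared few of these letters. The Pdgfra window held none of the 6 motifs, and the Fbn1 window held GGGCGG alone, with its leftmost base at position -185 from the start. The Postn window held TATAAA at -26 on its own strand. In the Tnc window TATAAA lay at -205, GGGCGG at -246, and CAGACA or its reverse complement at -71 and 40. The Thbs2 window held the reverse complement of TATAAA at -126, CCAAT or its reverse complement at -186 and -144, and the reverse complement of CAGACA at -67 and -44. Bgn, whose window is not printed, had 3 matches to GGGCGG on the other strand, at -34, -10 and -6, of which the last 2 overlap. No match overlapped a match to a different motif. Among all 32851 windows of this length, 13.6% held TATAAA, 37.4% CCAAT, 35.7% GGGCGG, 7.81% TGANTCA, 14.7% GGAATG and 21.0% CAGACA. Of the 8 windows of these genes, 4, 2, 4, 0, 0 and 3 held them in the same order. The pair of Tnc windows overlap, so that matches in the shared stretch (TATA box, GC box and 1 SMAD motif) are counted in both. A match is a run of letters and does not show that a factor binds there.

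On a per-length scale Bgn had the highest median level of the 10 genes and Fap the lowest. Deposited FPKM values, which divide a count by gene length and by the library total, had a median over the 12 tumours of 71.3 for Bgn, 34.1 for Postn, 24.2 for Fn1, 21.6 for Dcn, 13.0 for Lum and 10.3 for Fbn1. Thbs2 followed at 7.14, Tnc at 6.57, Pdgfra at 2.36 and Fap at 0.892. Neighbours in this order overlapped widely, as Postn ranged from 7.81 to 90.9 FPKM and Fn1 from 11.3 to 53.4. Bgn alone held 41.7 ± 7.93% of the summed FPKM of the 10 genes in WT, 33.1 ± 11.0% in C3_KO and 33.4 ± 12.5% in S1pr1_KO (SD, n = 4). Fbn1 held 3.52 ± 0.779% in WT, 5.82 ± 1.74% in C3_KO and 5.97 ± 0.299% in S1pr1_KO (SD, n = 4). The Fbn1 share was 2.59 to 4.37% in the WT libraries and 5.72 to 6.40% in the S1pr1_KO libraries, which did not overlap. A share also depends on the other genes in the sum, Bgn above all, and no rate of such separation was computed for shares. On CPM the 2 strains overlapped for Fbn1, with WT replicate 2 at 109 and S1pr1_KO replicate 3 at 102 CPM. The Tnc share was 25.1% in C3_KO replicate 3 and at most 7.70% in the other 11 libraries.

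**Figure D1:**
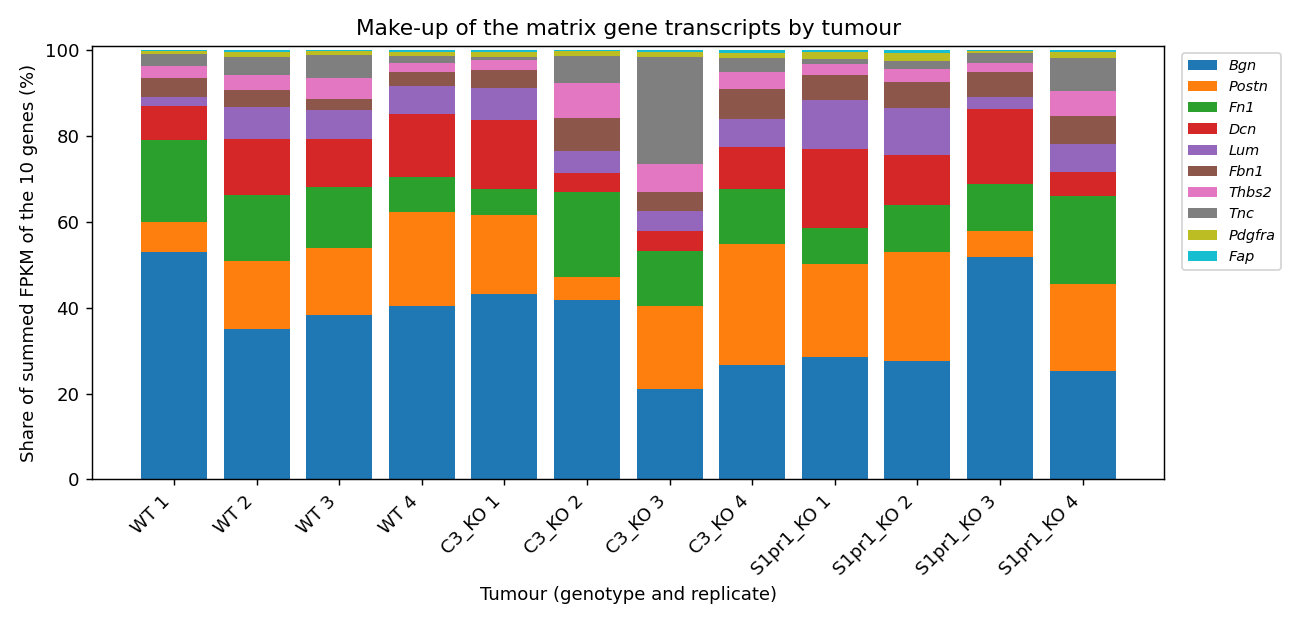
Share of each gene, in percent, in the summed FPKM of the 10 genes for each of the 12 tumours, as stacked bars ordered from the gene with the highest median FPKM at the bottom. Bgn holds from 21.1 to 53.1%, and the Tnc segment of C3_KO replicate 3 reaches 25.1%.

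Fbn1 showed the clearest difference from WT in both knockout strains, although no gene of the 10 passed the test. Its WT libraries 1 to 4 stood at 82.9, 109, 42.1 and 56.5 CPM. In C3_KO replicates 1 to 4 it was 131, 175, 94.4 and 219 CPM, and in S1pr1_KO replicates 1 to 4 it was 215, 197, 102 and 173 CPM. Only WT replicate 2 reached into the range of the knockout libraries, above C3_KO replicate 3 and S1pr1_KO replicate 3. The mean was 72.6 ± 29.6 CPM in WT, 155 ± 53.9 in C3_KO and 172 ± 49.6 in S1pr1_KO (SD, n = 4). The log2 fold change was 1.09 in C3_KO against WT, with a standard error (SE) of 0.35 and a 95% interval of 0.34 to 1.84 (edgeR adjusted p = 0.765). In S1pr1_KO against WT it was 1.24, with an SE of 0.35 and an interval of 0.49 to 1.99 (edgeR adjusted p = 0.216). These comparisons use the same 4 WT libraries and are not independent. Without S1pr1_KO replicate 3 the S1pr1_KO value was 1.47 and passed (edgeR adjusted p = 0.0454). That library was picked by low levels of other genes of the 10 and was also the lowest of S1pr1_KO for Fbn1. Leaving it out therefore raises the Fbn1 value by construction. The adjusted p of Fbn1 in S1pr1_KO against WT lay between 0.00479 and 0.719 across 21 alternatives. S1pr1_KO and C3_KO differed by 0.15 on the log2 scale, with an interval of -0.59 to 0.89. The 3 highest Fbn1 levels came from C3_KO replicate 4 and S1pr1_KO replicates 1 and 2, which were among the 4 libraries of lowest total count, and the part of depth in this difference was not tested.

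The fibroblast markers Pdgfra and Fap followed each other closely and split the S1pr1_KO tumours. Pdgfra was 8.09, 27.2, 12.6 and 12.3 CPM in WT replicates 1 to 4 and 26.9, 22.1, 18.5 and 30.8 CPM in C3_KO replicates 1 to 4. In S1pr1_KO replicates 1 to 4 it was 49.9, 48.6, 8.03 and 28.2 CPM. S1pr1_KO replicates 1, 2 and 4 lay above all WT libraries, while replicate 3 was the lowest of the 12. The log2 fold change against WT was 0.71 in C3_KO (SE 0.48) and 1.16 in S1pr1_KO (SE 0.49), and neither passed (edgeR adjusted p = 0.765 and 0.291). The C3_KO value was 1.16 without WT replicate 2. Without S1pr1_KO replicate 3, which was picked by its low Pdgfra among others, the S1pr1_KO value was 1.53 (edgeR adjusted p = 0.0456, in a range of 0.00954 to 0.762 over its alternatives). Fap, the least abundant of the 10, was 1.99, 5.93, 2.42 and 2.97 CPM in WT replicates 1 to 4 and 6.51, 1.98, 4.46 and 8.67 CPM in C3_KO. Its S1pr1_KO libraries stood at 10.1, 9.59, 1.38 and 5.66 CPM, a span of 7.28-fold within 1 strain. The lowest Fap count in any library was 473, so counting error is small beside this spread. The log2 fold change of Fap was 0.70 (SE 0.58) in C3_KO and 1.00 (SE 0.59) in S1pr1_KO against WT (edgeR adjusted p = 0.784 and 0.418). Without S1pr1_KO replicate 3 the latter was 1.39 (edgeR adjusted p = 0.1), and the C3_KO value was 0.37 without C3_KO replicate 4 and 1.13 without WT replicate 2.

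The small leucine-rich proteoglycans Dcn, Lum and Bgn were not called in either knockout strain. Lum, whose product spaces collagen fibrils, was 8.38, 42.9, 22.3 and 23.2 CPM in WT replicates 1 to 4, 47.3, 24.0, 19.4 and 42.0 CPM in C3_KO and 84.1, 74.8, 10.7 and 35.8 CPM in S1pr1_KO. Its order over the S1pr1_KO tumours was that of Pdgfra, with replicates 1 and 2 highest and replicate 3 lowest. The log2 fold change was 0.46 (SE 0.57) in C3_KO and 1.09 (SE 0.58) in S1pr1_KO against WT (edgeR adjusted p = 0.853 and 0.378). The C3_KO value of Lum was 0.17 without WT replicate 1, 0.23 without C3_KO replicate 1 and 0.89 without WT replicate 2, and the S1pr1_KO value was 1.47 without S1pr1_KO replicate 3 (edgeR adjusted p = 0.0808). Dcn, which binds collagen and TGF-beta, was 71.2, 176, 88.2 and 124 CPM in WT, 240, 48.2, 46.9 and 148 CPM in C3_KO, and 328, 186, 150 and 73.2 CPM in S1pr1_KO replicates 1 to 4. C3_KO replicates 2 and 3 held the lowest Dcn levels of all 12 tumours and C3_KO replicate 1 the second highest. The C3_KO difference from WT was 0.07 on the log2 scale, with an interval of -1.11 to 1.26, and turned to -0.51 without C3_KO replicate 1. It was also below 0 without WT replicate 1, WT replicate 3 or C3_KO replicate 4, at -0.10, -0.04 and -0.04. The S1pr1_KO difference of Dcn from WT was 0.68 (interval -0.51 to 1.87, edgeR adjusted p = 0.565), and 0.31 without S1pr1_KO replicate 1. Bgn, the most abundant of the 10, varied least: it was 314 to 507 CPM in WT, 224 to 674 CPM in C3_KO and 344 to 528 CPM in S1pr1_KO. Its log2 difference was 0.11 against WT in both knockout strains, with an interval of -0.57 to 0.78 in each. The C3_KO value of Bgn was -0.16 without C3_KO replicate 1 and both values were -0.01 without WT replicate 3.

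Fibronectin and the matricellular genes fell into different patterns. Postn, which encodes periostin, was 93.0, 322, 181 and 274 CPM in WT replicates 1 to 4 and 413, 89.7, 291 and 641 CPM in C3_KO. The S1pr1_KO libraries stood at 566, 607, 75.7 and 391 CPM, so replicates 1, 2 and 4 exceeded all WT libraries and replicate 3 fell below them. The log2 fold change was 0.72 (SE 0.63) in C3_KO and 0.91 (SE 0.63) in S1pr1_KO against WT (edgeR adjusted p = 0.793 and 0.494). The C3_KO value of Postn was 0.28 without C3_KO replicate 4 and 0.47 without WT replicate 1, and the S1pr1_KO value was 1.31 without S1pr1_KO replicate 3 (edgeR adjusted p = 0.147). Fn1 was 351, 415, 224 and 139 CPM in WT, 180, 435, 264 and 387 CPM in C3_KO, and 297, 355, 187 and 534 CPM in S1pr1_KO. The 3 strains overlapped throughout, with log2 differences from WT of 0.17 (interval -0.70 to 1.03) in C3_KO and 0.28 (interval -0.58 to 1.15) in S1pr1_KO. The sign of the Fn1 difference turned to -0.03 without C3_KO replicate 2 and to -0.02 without WT replicate 4 in C3_KO, and to -0.02 without S1pr1_KO replicate 4 in S1pr1_KO.

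Tnc had the widest range of the 10 genes, 21.4-fold over the 12 tumours. It was 35.9, 75.6, 54.7 and 20.7 CPM in WT replicates 1 to 4, 15.9, 90.3, 341 and 66.3 CPM in C3_KO, and 26.5, 40.0, 25.6 and 133 CPM in S1pr1_KO. C3_KO held both the lowest level, in replicate 1, and the highest, in replicate 3. C3_KO exceeded WT by 1.46 on the log2 scale (SE 0.80, edgeR adjusted p = 0.765), and by 0.30 without C3_KO replicate 3. In that library summed skin keratinocyte markers were 544 CPM against 4.20 to 16.2 CPM in WT. They were 99.5 CPM in S1pr1_KO replicate 3, where Tnc was 25.6 CPM, and 81.9 CPM in C3_KO replicate 4, where Tnc was 66.3 CPM. In the other libraries they were at most 17.2 CPM. The part of skin or milk-producing tissue in the Tnc level of C3_KO replicate 3 was not tested. In S1pr1_KO against WT the value was 0.27, with an interval of -1.44 to 1.98, and it was -0.61 without S1pr1_KO replicate 4. Thbs2, an inhibitor of vessel growth in mouse, was 30.4, 54.8, 45.1 and 20.8 CPM in WT, 38.9, 109, 79.6 and 72.9 CPM in C3_KO, and 50.5, 62.0, 22.1 and 92.8 CPM in S1pr1_KO. C3_KO replicates 2, 3 and 4 exceeded all WT libraries and replicate 1 did not. Its log2 fold change was 0.99 (interval 0.07 to 1.91) in C3_KO and 0.59 (interval -0.32 to 1.5) in S1pr1_KO against WT (edgeR adjusted p = 0.765 and 0.511). The S1pr1_KO value was 0.25 without S1pr1_KO replicate 4 and 0.91 without S1pr1_KO replicate 3.

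**Figure D2:**
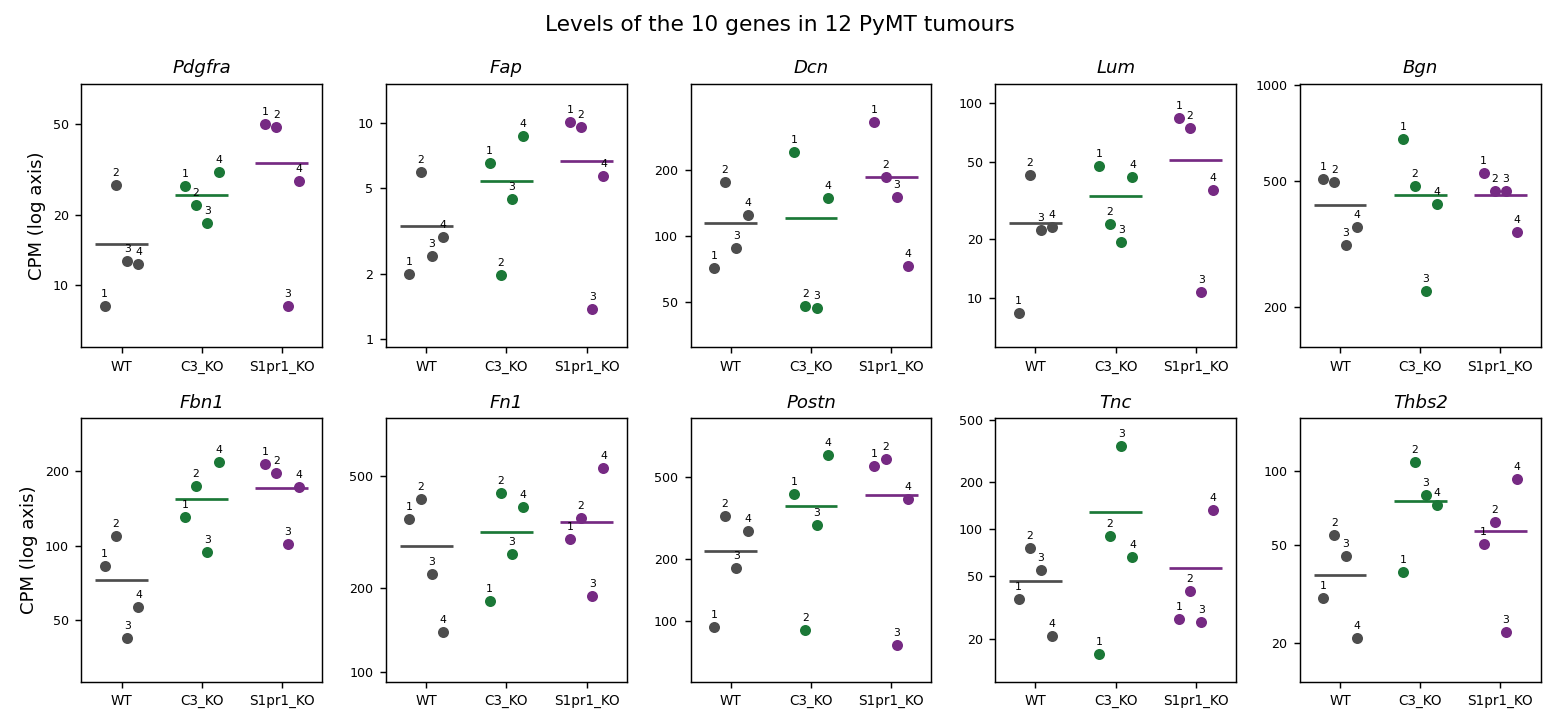
Level of each of the 10 genes, in CPM on a log axis, in 12 tumours grouped by genotype. Numbers beside the points are the replicates and lines are means of 4 libraries. S1pr1_KO replicate 3 is the lowest library for Pdgfra at 8.03, Fap at 1.38 and Postn at 75.7 CPM, and C3_KO replicate 3 is the highest for Tnc at 341 CPM.

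Counted together, none of the 10 genes was called in C3_KO against WT, where edgeR called 0 of the 30660 genes tested (0%). All 10 had a positive log2 fold change with a median of 0.70, beside 54.2% of all genes and a median of 0.05. Levels of many of the 10 correlated with one another, and the genes were listed with earlier results of these data known. Their signs are therefore not separate results. By edgeR at an unadjusted p under 0.05, Fbn1 and Thbs2 were higher and 0 were lower, beside 3.62% and 2.61% of all genes. Groups did not overlap for 0 of the 10, beside 1.32% of all genes higher and 1.72% lower. The signs for Dcn, Bgn and Fn1 turned under some alternatives, as given above. DESeq2 and limma-voom also called 0 of the 10 in this comparison.

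In S1pr1_KO against WT, none of the 10 was called either, beside 0 of 30660 genes (0%). All 10 again had a positive value, with a median of 0.80, beside 51.7% of all genes and a median of 0.03. These signs rest on the same 4 WT libraries as those of C3_KO and are likewise not separate results. By edgeR at an unadjusted p under 0.05, Fbn1 and Pdgfra were higher and 0 were lower, beside 7.69% and 7.78% of all genes. Groups overlapped for all 10, beside 2.78% of genes that did not overlap and were higher and 4.8% that were lower. DESeq2 called 1 of the 10, Fbn1 at a log2 fold change of 1.27 (DESeq2 adjusted p = 0.0319), beside 3.42% of all genes. The limma-voom fit, which gives each library a quality weight, called 5 of the 10 (Pdgfra, Fap, Lum, Fbn1 and Thbs2) beside 25.5% of all genes. Without S1pr1_KO replicate 3, edgeR called 2 of the 10, Pdgfra and Fbn1, beside 4.25% of all genes, but that library was picked by its low levels of genes of the 10. Between S1pr1_KO and C3_KO, 0 of the 10 were called, beside 0 of 30660 genes (0%), with 8 positive values, 2 negative and a median of 0.17, where Bgn, at 0.00 after rounding, is counted as positive. No gene of the 10 had an unadjusted p under 0.05 there, beside 1.77% of genes higher and 1.63% lower, and none was free of overlap, beside 0.476% higher and 0.838% lower. Tnc had the lowest p of the 10, with a log2 difference of -1.19 (interval -2.92 to 0.54), which was -0.03 without C3_KO replicate 3.

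**Figure D3:**
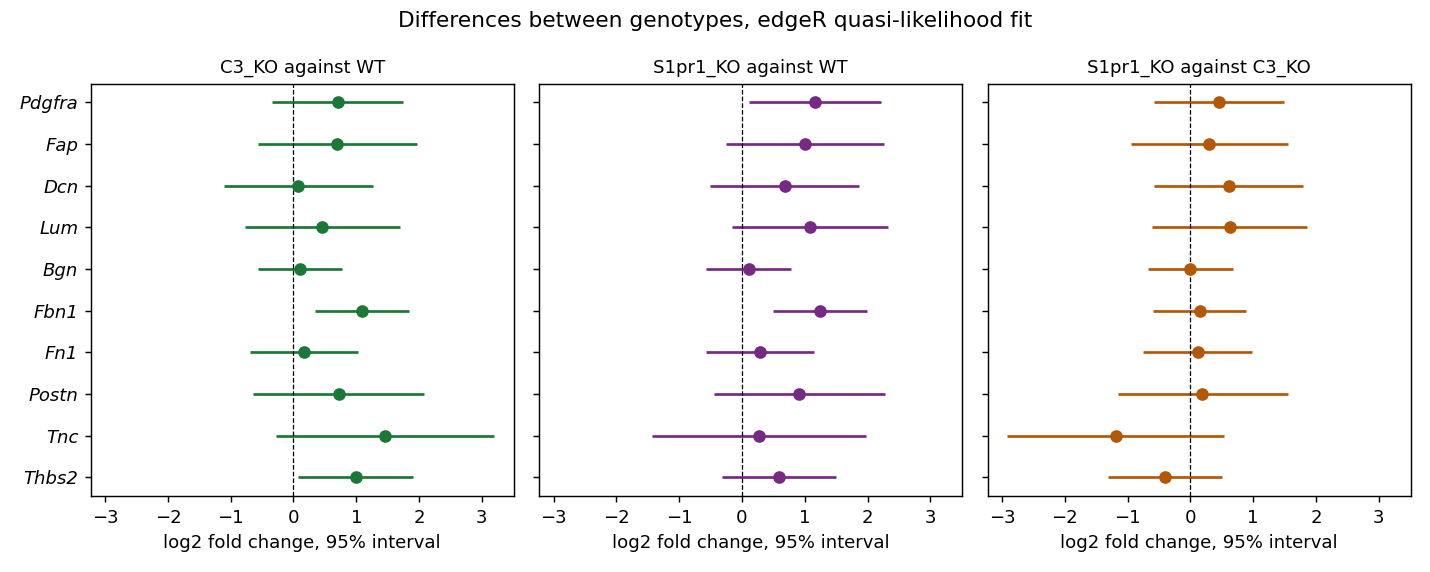
Log2 fold change of each of the 10 genes with its 95% interval, for C3_KO against WT, S1pr1_KO against WT and S1pr1_KO against C3_KO, from the edgeR fit to all 12 libraries. The Fbn1 intervals lie above 0 in both comparisons with WT, at 0.34 to 1.84 and 0.49 to 1.99, and the Tnc interval of S1pr1_KO against C3_KO runs from -2.92 to 0.54.

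The spread among tumours of a strain was large for most of these genes. The standard deviation of log2 CPM within a genotype, pooled over the 3 genotypes, was 1.31 for Tnc, 1.17 for Postn, 1.03 for Lum, 1.02 for Fap, 0.92 for Dcn and 0.85 for Pdgfra. It was 0.71 for Thbs2, 0.64 for Fn1, 0.54 for Fbn1 and 0.46 for Bgn. The median over 15384 genes with a mean log2 CPM of at least 1 was 0.43. The libraries took the same side for many of the genes. S1pr1_KO replicate 1 was among the 4 highest of 12 for 7 of the 10 genes, S1pr1_KO replicate 2 and C3_KO replicate 4 for 6, and WT replicate 2 and C3_KO replicate 1 for 5. S1pr1_KO replicate 3, WT replicate 1 and WT replicate 3 were among the 4 lowest for 7 genes each. WT replicate 2 set the top of the WT range for every gene of the 10 except Bgn, for which it was WT replicate 1 at 507 CPM.

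Levels of the 10 genes were compared pairwise across the 12 tumours, 45 pairs in all, with 100000 resamples for each permutation test and Benjamini-Hochberg adjustment over the 45. One set held Pdgfra, Fap, Lum and Postn. Postn and Fap had a Pearson r of 0.97 and a Spearman rho of 0.97 (permutation p = 1e-05 for each, the smallest these resamples can give, adjusted p = 0.000225 and 0.00045). Pdgfra and Lum had an r of 0.96 and a rho of 0.90 (permutation, adjusted p = 0.000225 and 0.0036). The other 4 pairs within the set had an r from 0.82 to 0.91 and passed by both measures. Without the 2 tumours farthest from the median of the first gene of a pair, r was 0.95 for Fap with Postn, 0.92 for Pdgfra with Lum and 0.65 for Pdgfra with Postn. By both measures Fbn1 joined this set through Pdgfra alone, with an r of 0.76 and a rho of 0.83 (permutation, adjusted p = 0.0262 and 0.00881). Their r was 0.88 without the 2 farthest tumours. Lum with Fbn1 passed by rho at 0.73 (permutation, adjusted p = 0.0369) and not by r at 0.60 (adjusted p = 0.105). Fbn1 with Fap and Fbn1 with Postn passed by neither.

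A second set held Fn1, Thbs2 and Tnc. Fn1 and Thbs2 had an r of 0.78 and a rho of 0.80 (permutation, adjusted p = 0.018 and 0.0148), and Tnc and Thbs2 an r of 0.74 and a rho of 0.86 (permutation, adjusted p = 0.0262 and 0.00525). Without the 2 farthest tumours these were 0.69 and 0.85. Fn1 and Tnc passed by rho at 0.73 (permutation, adjusted p = 0.0353) and not by r at 0.57 (adjusted p = 0.126). Tnc had a negative r with all 3 proteoglycan genes, near 0 with Lum at -0.09 (rho -0.11, adjusted p = 0.857 and 0.804 by permutation). The r was -0.70 with Dcn and -0.71 with Bgn (permutation, adjusted p = 0.0445 and 0.0426), but by rho neither passed (-0.62 and -0.53, adjusted p = 0.0964 and 0.161), and r was -0.50 and -0.48 without the 2 farthest tumours. Tnc and Postn, both matricellular genes, had an r of 0.03. Among the proteoglycan genes, Dcn with Lum passed by rho at 0.74 (permutation, adjusted p = 0.0332) and not by r at 0.62 (adjusted p = 0.105), and Dcn with Bgn had an r of 0.63 (adjusted p = 0.0983). In all, 11 pairs passed by r, 12 by rho and 9 by both, and 39 of the 45 r values were positive. Taken as deviations from the genotype means, 10 pairs passed by r. The 4 pairs Pdgfra with Lum, Fap with Postn, Fn1 with Thbs2 and Tnc with Thbs2 were among them, at 0.96, 0.97, 0.86 and 0.74, while Pdgfra with Fbn1 was at 0.67 (permutation, adjusted p = 0.0597). The permutations of deviations shuffled them across genotypes and did not allow for the fitted means, so these p-values may be too small. Libraries share depth and make-up across genes, and with 4 tumours each no r was computed for a single strain.

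**Figure D4:**
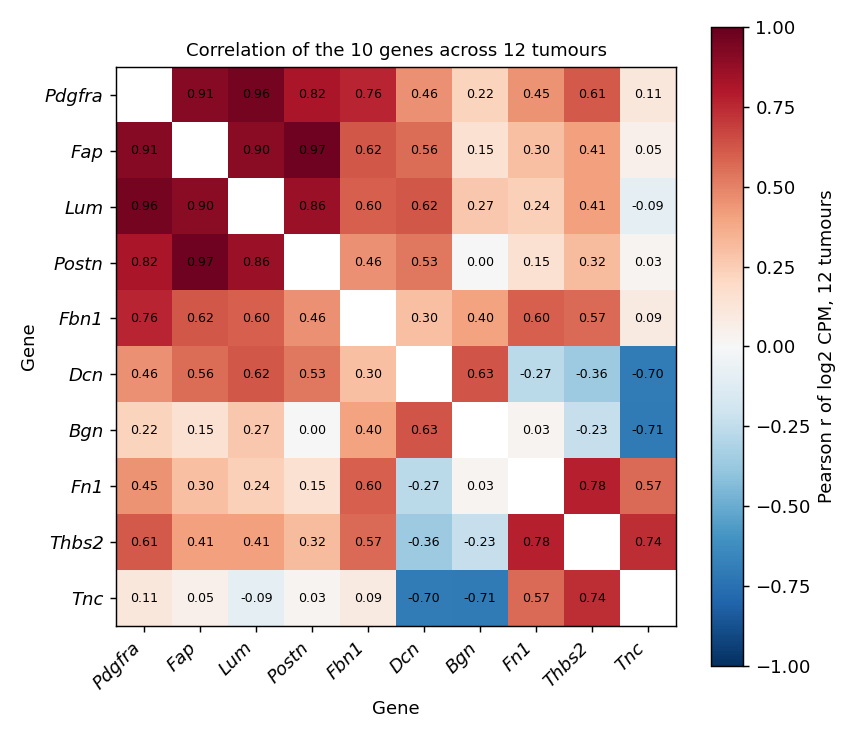
Pearson r of log2 CPM between each pair of the 10 genes over 12 tumours, on a colour scale from -1 to 1. The block of Pdgfra, Fap, Lum and Postn holds r from 0.82 to 0.97, and Tnc is at -0.70 with Dcn and -0.71 with Bgn.

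The genes whose levels were most like these were found among 13052 named genes by Pearson r over the 12 libraries, as a description. Col12a1, a collagen of fibril surfaces, was nearest to Thbs2 with an r of 0.93, and P3h3, a collagen prolyl hydroxylase, was nearest to Bgn with 0.93. Sned1, a matrix glycoprotein, was nearest to Pdgfra with 0.97 and to the mean of the 10 genes with 0.96. Tram2, which takes part in collagen synthesis, was nearest to Fn1 with 0.89. Of the remaining nearest genes, Maf stood at 0.97 with Dcn, Ms4a4d at 0.98 with Lum, Zmym6 at 0.97 with Fap, Zfp595 at 0.98 with Postn, Tbc1d2b at 0.95 with Fbn1 and Tcf20 at 0.94 with Tnc. After Sned1, the genes nearest to the mean of the 10 were Mrc1, a macrophage mannose receptor, at 0.96, the guidance ligand gene Slit2 at 0.95, and Abi3bp, the mesenchymal cadherin gene Cdh11 and Pkd2 at 0.94 each.

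Related genes were read from 7 lists, and edgeR called none of their 106 members in any comparison, as it called 0 of all 30660 genes (0%), so this count says nothing particular about the lists. Of 13 further small leucine-rich proteoglycan genes, 9 were positive in C3_KO against WT with a median log2 of 0.41, and 11 in S1pr1_KO against WT with a median of 0.43. Chadl at -0.94 and Chad at -1.95 had the lowest p in C3_KO, and Ecm2 at 1.64 and Podn at 0.80 in S1pr1_KO. Kera and Epyc, members of this family, were at most 0.143 and 1.03 CPM in any library. Of 18 microfibril and elastic fibre genes, 16 were positive in C3_KO (median 0.27) and 15 in S1pr1_KO (median 0.31). In this list the latent TGF-beta binding protein genes Ltbp2, at 0.82 in C3_KO, and Ltbp4, at 0.90 in S1pr1_KO, had the lowest p.

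Of 22 further matricellular and adhesive genes, 18 were positive in C3_KO (median 0.45) and 15 in S1pr1_KO (median 0.32). The tenascin gene Tnn was at log2 3.33 in C3_KO against WT, and its levels were 7.31 and 5.28 CPM in C3_KO replicates 2 and 3 and 0.111 to 0.658 CPM in WT. Those libraries also held the highest Thbs2 level and, after S1pr1_KO replicate 4, the next highest. Between S1pr1_KO and C3_KO, Tnn at -2.80 and Ccn3 at -1.35 were the 2 matricellular genes with an unadjusted p under 0.05. Nid1, a basement membrane linker, was at 1.20 in S1pr1_KO against WT. Thbs1, the closest relative of Thbs2, stood at -0.29 in C3_KO and -0.58 in S1pr1_KO against WT, where Thbs2 was positive, and neither gene was called. Thbs1 is named here after its values were seen.

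Among 20 fibroblast identity genes, 12 were positive in C3_KO (median 0.13) and 15 in S1pr1_KO (median 0.42), with Lrp1 at 1.05 and Col14a1 at 1.11 in S1pr1_KO. All 9 fibrillar and microfibrillar collagen genes were positive against WT in both knockout strains, with medians of 0.77 and 0.86. Among these, Col6a3 stood at 1.26 and Col6a1 at 0.77 in C3_KO, and at 1.22 and 0.92 in S1pr1_KO. Ligands and receptors of PDGF and TGF-beta had medians of 0.21 and 0.17 over 12 genes. Tgfbr2 was at 0.63 in C3_KO, and Tgfbr3, a co-receptor, at 0.88 in S1pr1_KO (edgeR adjusted p = 0.198). Of 12 receptors for fibronectin, tenascin and thrombospondin, 10 were positive in C3_KO (median 0.28) and 6 in S1pr1_KO (median 0.00). Itgav was at 0.81 and Itga8 at 1.00 in C3_KO, and Itga4, also found on leukocytes, at 1.83 in S1pr1_KO.

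Markers of other cell types also differed between libraries, and their correlation with the 10 genes was not computed. Summed adipocyte markers, 8 of 8 detected in all libraries, were 778 and 729 CPM in S1pr1_KO replicates 1 and 2, the libraries highest in Pdgfra, Fap and Lum. They were 47.8 and 77.1 CPM in S1pr1_KO replicates 3 and 4, 50.1 to 252 CPM in C3_KO and 30.8 to 181 CPM in WT, where replicate 2, the WT library highest in Pdgfra, held the 181. Other libraries did not follow this order. C3_KO replicate 2 held the 252 with Fap at only 1.98 CPM, and C3_KO replicate 4, highest of all in Postn at 641 CPM, held 65.5 CPM. Summed luminal epithelial markers were 2460, 2910 and 2890 CPM in S1pr1_KO replicates 1, 2 and 4 and 5250 CPM in replicate 3, against 3190 to 6860 CPM in WT, while C3_KO spanned 3160 to 6280 CPM. WT replicate 1, with the lowest Lum of the 12 tumours, held the 6860. Krt8 and Krt18 made up much of the sum in S1pr1_KO replicate 3, at 1480 and 1740 CPM. Krt19, Cldn7 and Elf5 were also higher in that library than in S1pr1_KO replicate 4. Epcam, Cdh1 and Esrp1 went the other way, at 376, 343 and 188 CPM in replicate 3 and 672, 392 and 206 CPM in replicate 4. The luminal sum therefore does not stand for each of its markers. Summed B and plasma cell markers were 141 and 63.1 CPM in S1pr1_KO replicates 1 and 2 and at most 20.4 CPM elsewhere. Skeletal muscle markers were 2710 CPM in WT replicate 2, 1480 in C3_KO replicate 2 and 1450 in S1pr1_KO replicate 1, and at most 408 CPM elsewhere. Pericyte and smooth muscle markers, at 544 to 1920 CPM in WT, 396 to 1260 in C3_KO and 437 to 1190 in S1pr1_KO, overlapped between strains. Blood endothelial markers were 57.3 to 128 CPM in WT, 106 to 142 in C3_KO and 118 to 198 in S1pr1_KO. Macrophage markers were 294 to 388, 162 to 405 and 304 to 474 CPM, basal epithelial markers 330 to 922, 379 to 994 and 208 to 1110 CPM, and Schwann cell markers 469 to 678, 404 to 686 and 395 to 854 CPM in WT, C3_KO and S1pr1_KO. The part of these cell types in the levels of the 10 genes was not tested.

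Genes that overlap Pdgfra, Fbn1, Fn1 or Tnc in the older annotation could share reads with them, since no source used here states how strand was handled. The largest was 8030451A03Rik, on the strand opposite to Tnc, whose count was at most 7.09% of the Tnc count in any library. The others were at most 2.30% of the gene they overlap, the value of Apol7d within Fn1. No overlapping gene was annotated for Fap, Dcn, Lum, Bgn, Postn or Thbs2.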

How the data were processed

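Total RNA of 12 primary tumours was sequenced, 4 per genotype. Genotypes came from the labels, and replicates were numbered in accession order, so a number only names a library. The authors deposited raw counts per gene and a gene length, as whole numbers, and a second table of FPKM values. Of 682320 deposited FPKM values, 682317 equal count over length and library total within a relative tolerance of 0.0001. Per the submitters' processing notes, StringTie and GRCm39 (mm39) were used. The aligner, the counter and the handling of strand were not given in the sources used here.

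Counts were tested across all genes with edgeR 4.0.16 in R 4.3.3 (filter on low counts, TMM scaling, robust quasi-likelihood F-test, all 12 libraries, 9 residual degrees of freedom). Benjamini-Hochberg adjustment ran over all 30660 genes, and an adjusted p under 0.05 was called. SE came from the fold change and F statistic. The common biological coefficient of variation was 0.564. DESeq2 1.42.0 and limma 3.58.1 were alternatives. Correlations used log2 CPM with a prior count of 2.

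The 10 genes, the 7 related lists and the 12 marker lists were chosen with earlier results of these data known. All 10 genes are named. Of each related list, up to 2 genes of lowest p are given where none passed, and the nearest genes are those of highest r with a mean log2 CPM of at least 1.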

Additional observations from a re-analysis of the deposited data

How the results depend on the processing

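The 30 log2 fold changes (10 genes, 3 comparisons) were recomputed under 21 alternatives, 630 values in all. Of these, 8 passed the threshold where the reported value did not, and 23 turned in sign, spread over 10 of the 30 results. Bgn in S1pr1_KO against C3_KO, reported at 0.00, has no direction to keep and ran from -0.22 to 0.26. No value of Pdgfra, Lum, Tnc in C3_KO, Fbn1 against WT or Thbs2 turned. Dcn in C3_KO against WT turned to -0.04 on log2(FPKM + 1) and -0.06 on log2(FPKM + 0.1). With C3_KO replicate 3 and S1pr1_KO replicates 1 and 4 left out together, Tnc in S1pr1_KO against WT turned to -0.45, and S1pr1_KO against C3_KO turned to -0.04 for Fap, -0.20 for Fbn1, -0.28 for Fn1 and -0.15 for Postn. The cause was not tested.

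Leaving out 1 library at a time, the lowest and highest log2 fold changes against WT in C3_KO were -0.51 and 0.35 for Dcn, -0.16 and 0.33 for Bgn, and -0.03 and 0.41 for Fn1. In S1pr1_KO against WT they were -0.01 and 0.22 for Bgn, -0.02 and 0.54 for Fn1, and -0.61 and 0.60 for Tnc. In S1pr1_KO against C3_KO they were -0.03 and 0.36 for Fbn1 (below 0 without C3_KO replicate 3), -0.18 and 0.33 for Fn1 (below 0 without C3_KO replicate 1 or S1pr1_KO replicate 4), and -0.13 and 0.63 for Postn (below 0 without C3_KO replicate 2 or S1pr1_KO replicate 2).

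Counts of called genes moved with the tool and with 1 library. In S1pr1_KO against WT, 0 genes were called by edgeR (4743 at an unadjusted p under 0.05), 10 with no filter, 23 with a CPM filter, 955 by DESeq2, 7828 by limma-voom with library quality weights (both choices changed together), 33 on log2(FPKM + 1), 43 on log2(FPKM + 0.1) and 68 with only these 2 genotypes fitted. Of the 10 genes, DESeq2 called 1 and limma-voom 5. In C3_KO against WT, 0 were called by edgeR (1909 unadjusted), 82 by DESeq2, 5 by limma-voom and 1 on log2(FPKM + 1). In S1pr1_KO against C3_KO, 0 were called by edgeR (1042 unadjusted) and 114 by DESeq2. With 1 library left out, called genes ran from 0 to 8 in C3_KO against WT, 0 to 3 in S1pr1_KO against C3_KO and 0 to 1330 in S1pr1_KO against WT, the highest without S1pr1_KO replicate 3, where called genes of the 10 ran from 0 to 2.

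No paired analysis was possible because the labels give no litter, batch or shared replicate number. With 4 libraries per genotype and a within-genotype SD of log2 CPM up to 1.31, differences of the size seen here lay within the spread for most of the 10 genes.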
